A study of Mus musculus with 6 samples.

Results

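IL-3, GM-CSF and M-CSF were followed in peptide-stimulated T cell cultures together with the chains of the IL-3 and GM-CSF receptors, 7 genes of the 49671 in the count tables. The cytokine genes were Il3, Csf2 (GM-CSF) and Csf1 (M-CSF), and the receptor genes were Il3ra, Csf2ra, Csf2rb and Csf2rb2. They were listed by name as cytokines that T cells send to myeloid cells and their receptors. That list was selected on earlier results of these libraries, in which the fold changes of BiTS against isotype and BiTS(mut) had shown Il3 lower, and each gene was found in all 6 tables by its identifier. OT-I cultures, whose CD8 T cells carry a transgenic receptor for the SIINFEKL peptide, were given that peptide on antigen-presenting cells. The agents were BiTS, a bispecific molecule that draws the inhibitory receptor LAG-3 close to the T cell receptor, its counterpart BiTS(mut), whose mutation the labels leave undescribed, and an isotype control. RNA was taken at 48 h, with 2 libraries per group. The labels give the OT-I genotype and the peptide for all groups, name splenocytes as the source and naive primary CD8 T cells as the cell type, and state neither doses nor animals, so p-values measure the spread between these libraries, which may be technical.

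IL-3 and GM-CSF are secreted by activated T cells and drive the growth and activation of myeloid cells, mast cells, basophils and dendritic cells. Each binds a private alpha chain, and the alpha chain then pairs with the common beta chain, which carries the signal through JAK2 and STAT5. Mice have a further beta chain, encoded by Csf2rb2, that serves IL-3 alone, while M-CSF acts through an unrelated receptor kinase.

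Libraries held 10813123 to 15239077 gene counts, and 3 counts, the upper limit for a gene seen 0 times, equalled 0.197 to 0.277 CPM (gene counts scaled to a common library total). Libraries fell into a second set (title numbers 4 to 6) and a first set (title numbers 1 to 3), each with 1 library per treatment. The first principal component, 65.4% of the variance, separated these sets, and what a title number stands for is not given in the sources used here. The 8 CD8 T cell markers, led by Gzmb, Cd8b1 and Cd3d, summed to 3209 to 4104 CPM, mostly Gzmb, so the labelled cell type was present. The 18 dendritic cell markers, led by Cst3, Cd74 and Ccr7 and with Siglech at 0, summed to 1884 to 4268 CPM, and the 15 macrophage and monocyte markers to 30.9 to 54.1 CPM. Of the other lists, B cell markers reached 101 CPM, mostly Ighm, and CD4 T cell markers reached 100.2 CPM, mostly Zbtb7b. Stromal, eosinophil, NK cell and neutrophil markers stayed at or below 10.5, 5.76, 2.32 and 1.06 CPM in every library, with S100a8, S100a9 and Retnlg at 0. The basophil and mast cell list reached 21.7 CPM, mostly Kit. Of its other genes Fcer1a and Ms4a2 were at 0, and Mcpt8, Cpa3 and Prss34 had 2, 1 and 1 counts in all. Gata2, Hdc and Cd200r3 had 41, 39 and 11 counts in all.

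The order of the 7 genes was set by TPM, which also divides by exon length. Il3 came first at a mean of 75.1 ± 35.3 TPM over the 6 libraries (SD), more than 93.5% of the genes detected. Il3ra followed at 66.2 ± 17.3 TPM, Csf2ra at 62.4 ± 8.02 TPM and Csf2rb at 58.9 ± 38.3 TPM. These 4 overlapped in their ranges and changed places from library to library. Csf2rb2 at 8.10 ± 5.27 TPM and Csf2 at 5.51 ± 3.08 TPM formed a lower pair that also overlapped. Csf1 was last at 0.264 ± 0.0770 TPM, below Csf2 in all 6 libraries.

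**Figure D1:**
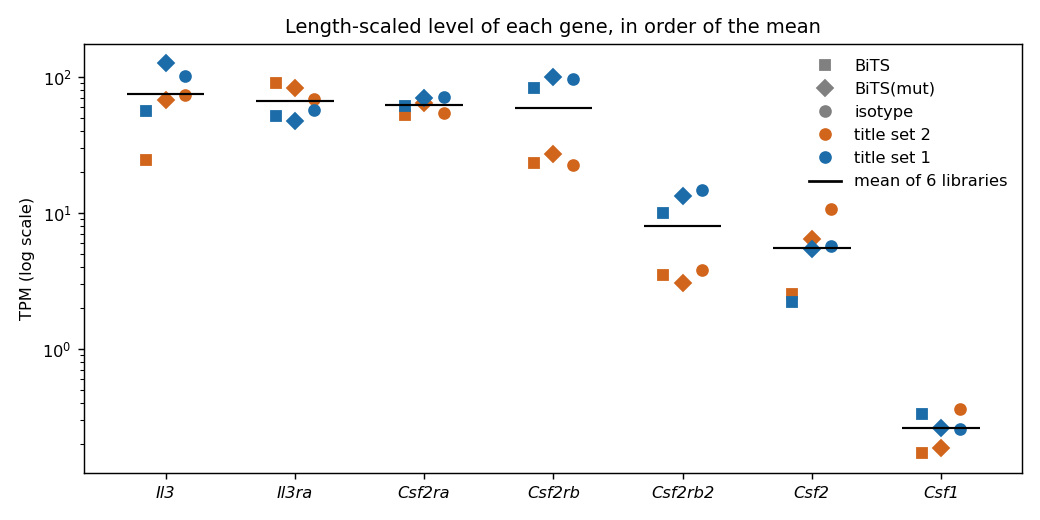
Level of each gene in TPM on a log axis, in order of the mean over 6 libraries (black line), with BiTS, BiTS(mut) and isotype libraries from left to right in each column and the title sets in colour. Il3 and 3 of the receptor chains share 1 range, Csf2rb2 and Csf2 a lower one, and Csf1 lies between 0.171 and 0.364 TPM.

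Il3 encodes IL-3 and lies on the minus strand at chr11:54265303-54267277 (mm10, as deposited), a protein-coding gene with 629 bases of exon. The 250 bases before its start are shown because Il3 had the clearest treatment values. They lie at chr11:54267280-54267529 on the minus strand (RefSeq, GRCm38.p6), and the RefSeq start is 2 bases from the deposited end of the gene. Capitals mark GGAAA, the core bound by NFAT (here on the opposite strand, read as TTTCC), and TGTGGT, a RUNX motif.
Il3 promoter: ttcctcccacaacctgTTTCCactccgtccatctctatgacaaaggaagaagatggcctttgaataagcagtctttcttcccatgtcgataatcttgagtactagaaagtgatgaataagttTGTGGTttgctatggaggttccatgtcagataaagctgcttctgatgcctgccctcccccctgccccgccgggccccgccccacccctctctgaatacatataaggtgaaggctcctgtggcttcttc
Both strands were searched, and the motifs do not overlap. Over 32851 RefSeq promoter windows of the same length, 55.6% held GGAAA at least once and 14.0% held TGTGGT, so neither match sets Il3 apart. The AP-1 motif TGANTCA was not in this window and was in 6.75% of all windows.

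Il3 had 181 and 68 counts in the BiTS libraries, or 13.4 and 6.29 CPM, against 452 and 215 counts in the BiTS(mut) libraries, or 29.7 and 17.5 CPM, and 279 and 218 counts in the isotype libraries, or 24.0 and 19.6 CPM. Both BiTS libraries were the lowest of the 6, and their range overlapped neither of the other groups, while the BiTS(mut) and isotype ranges overlapped. The share of all genes with this pattern was not counted, so nothing is read from it. For the lowest library, BiTS replicate 2, the 95% Wilson interval was 4.96 to 7.97 CPM, and such intervals cover counting error only. Group means were 9.86 ± 5.05 CPM in BiTS, 23.6 ± 8.60 CPM in BiTS(mut) and 21.8 ± 3.07 CPM in isotype (SD, n = 2 each).

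Within each title set the BiTS library was also the lowest. In the second set the BiTS to isotype log2 ratio for Il3 was -1.64 (95% counting interval -2.06 to -1.24), and in the first set it was -0.84 (-1.11 to -0.56). The BiTS to BiTS(mut) log2 ratio was -1.48 in the second set and -1.14 in the first. The intervals cover counting error alone, with 1 library on each side. Il3 was among the genes selected on these comparisons, so the ratios are a description and not a test. The BiTS(mut) to isotype log2 ratio for Il3 was -0.17 in the second set and 0.31 in the first, of opposite sign.

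Csf2 encodes GM-CSF and is the neighbour of Il3, on the same strand at chr11:54247271-54249667 (mm10), with 15635 bases between the genes and 800 bases of exon. It shares 96 exon bases with the antisense gene Gm12223, which had 2 counts in all. Its 3′ untranslated region is a textbook case of the AU-rich element, a run of ATTTA pentamers through which cytokine mRNA is destabilised. The 30 bases with most pentamers in the annotated 3′ untranslated region of each cytokine transcript of the cluster (GENCODE M21) are shown. ATTTA is in capitals.
Csf2: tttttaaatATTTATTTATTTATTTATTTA
Il3: ctttatgccatcaaatgtcttatcaATTTA
Csf2 held 5 overlapping pentamers in this stretch and 9 in its 317 bases of 3′ untranslated region, and 0.273% of 20846 genes had a 30-base window with as many. Il3 held 1 in the 101 bases annotated as its 3′ untranslated region, and 65.7% of genes held at least 1. Sequence beyond the annotated ends was not searched, so the count does not show that Il3 mRNA lacks such an element.

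Csf2 had 9 and 9 counts in the BiTS libraries, or 0.668 and 0.832 CPM, against 25 and 26 counts in the BiTS(mut) libraries, or 1.64 and 2.12 CPM, and 20 and 40 counts in the isotype libraries, or 1.72 and 3.60 CPM. The BiTS libraries were again the lowest, a pattern whose share over all genes was not counted, and the BiTS(mut) and isotype ranges overlapped. The counts were low: BiTS replicate 1 had a 95% Wilson interval of 0.351 to 1.27 CPM. The BiTS to isotype log2 ratio for Csf2 was -2.11 in the second set (counting interval -3.34 to -1.05) and -1.36 in the first (-2.68 to -0.16).

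**Figure D2:**
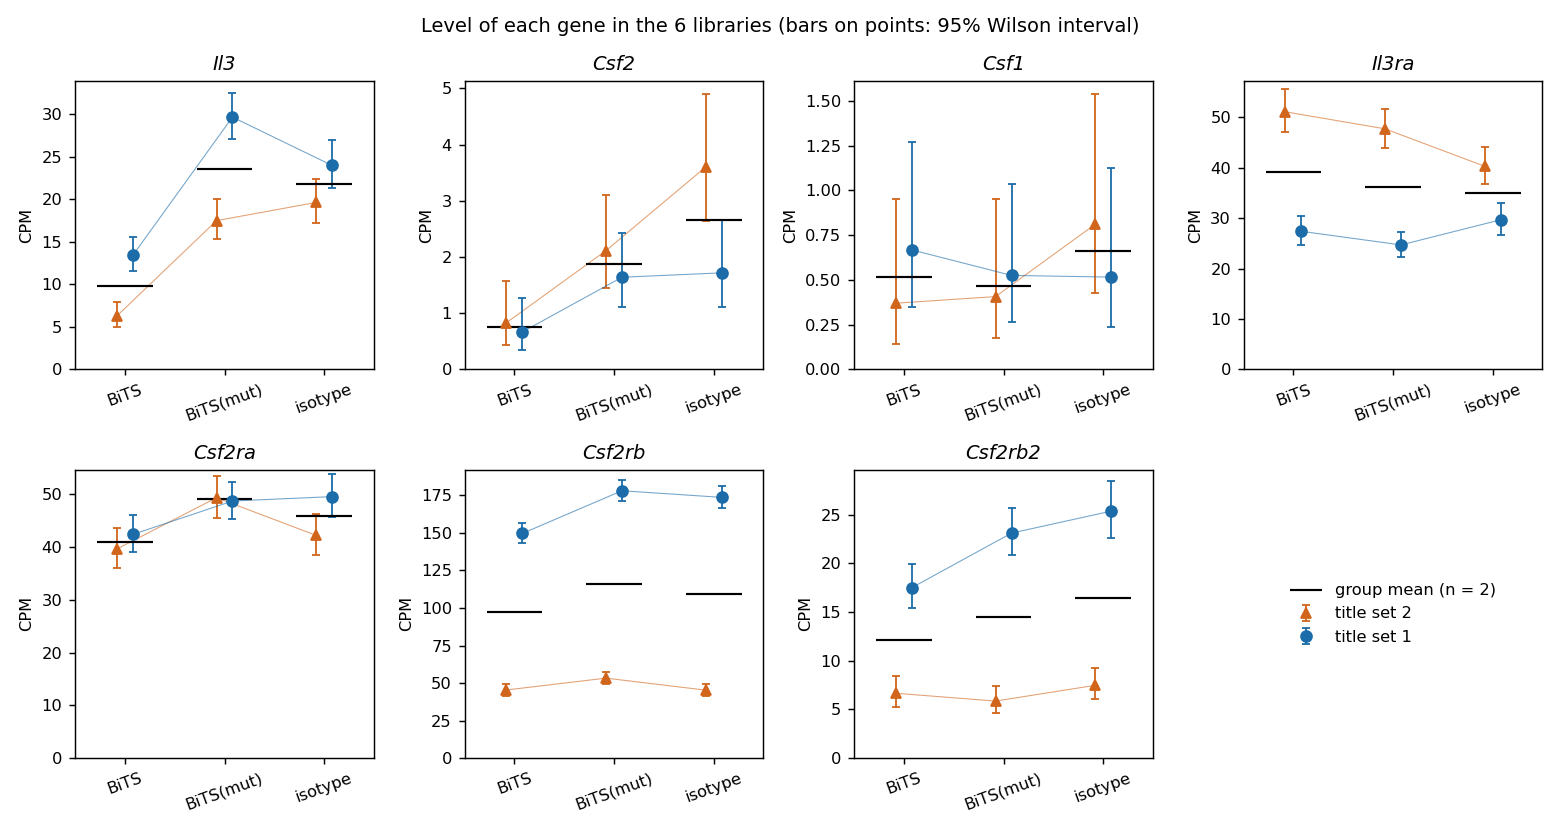
CPM of each gene in BiTS, BiTS(mut) and isotype libraries, with title set 2 left of title set 1, bars on points for the 95% Wilson interval black lines for group means (n = 2) and thin lines joining a set. Il3 and Csf2 are lowest in both BiTS libraries, while Csf2rb and Csf2rb2 part by title set in every treatment.

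**Figure D3:**
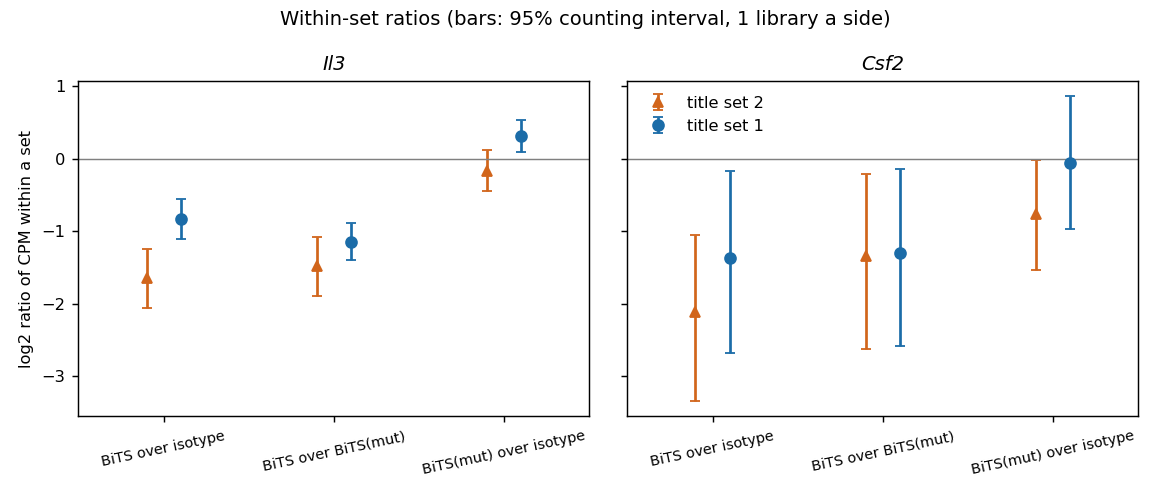
Log2 ratio of CPM between treatments within each title set for Il3 and Csf2, with 1 library on each side and bars for the 95% counting interval. Ratios of BiTS over isotype and of BiTS over BiTS(mut) lie below 0 in both sets, and those of BiTS(mut) over isotype lie between -0.77 and 0.31. For the BiTS ratios, on which the genes were selected, the bars are a description and no test.

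Across all genes, edgeR's quasi-likelihood test on all 6 libraries, with treatment alone as the term, gave for BiTS against isotype a log2 fold change of -1.11 ± 0.41 (SE) for Il3 and -1.80 ± 0.54 for Csf2. Against BiTS(mut) the BiTS values were -1.24 ± 0.41 for Il3 and -1.30 ± 0.54 for Csf2. The fit with the title set as a block gave close values with smaller errors for Il3: -1.14 ± 0.16 against isotype and -1.24 ± 0.16 against BiTS(mut). For Csf2 it gave -1.75 ± 0.45 against isotype and -1.30 ± 0.46 against BiTS(mut). Earlier results of both BiTS comparisons were in view when the genes were chosen, and both share the BiTS libraries, so these values are a description and no p-value is given. Without the block 0 of the 6 genes that passed the filter on low counts were called in either comparison, beside 0% of all genes tested. With the block Il3 and Csf2 passed the threshold against isotype, beside 3.4% of all genes called (1.59% lower and 1.81% higher), and Il3 alone against BiTS(mut), beside 0.972% (0.7% lower and 0.272% higher). Nothing is read from these counts, since the list was selected on the same comparisons. Csf2 did not pass against isotype without BiTS replicate 2 (-1.52) and without isotype replicate 4 (-1.32), and it passed the filter on low counts only through the groups where it was higher. Under scaling to the ERCC spike-in transcripts, with the block, Il3 lay at -1.18 against isotype and -1.12 against BiTS(mut) and Csf2 at -1.70 and -1.11, with 0 genes called in either comparison.

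The dendritic cell marker sum was 1884 to 3386 CPM in BiTS libraries, 2096 to 4075 CPM in BiTS(mut) libraries and 1994 to 4268 CPM in isotype libraries. In the blocked fit 4 of its 15 tested genes fell in BiTS against isotype (Ccl17, Ccl22, H2-Aa and Xcr1), and 3 against BiTS(mut) (Ccl17, Ccl22 and Fscn1), beside 1.59% and 0.7% of all genes lower. Of the 8 CD8 T cell markers, Cd8a and Cd8b1 rose and Prf1 and Gzmb fell against isotype, and Prf1 alone fell against BiTS(mut). The share of all genes called higher against isotype was 1.81%. Both marker lists were chosen with earlier results of these data known, so these calls are a description and not a test. The part of either cell type in the Il3 and Csf2 values was not tested, and in bulk RNA fewer cells of a type and less RNA per cell cannot be told apart.

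Csf1 encodes M-CSF, the growth factor of macrophages, and lies at chr3:107741048-107760469 (mm10, minus strand). It had 9 and 4 counts in BiTS libraries, 8 and 5 in BiTS(mut) libraries and 6 and 9 in isotype libraries, or 0.370 to 0.811 CPM. The 3 groups overlapped, and all intervals in the plot of levels by treatment overlap. Csf1 failed the filter on low counts and was not tested. When the filter was dropped, the blocked log2 fold change for Csf1 was -0.31 ± 0.73 for BiTS against isotype, an error too wide to show a change of this size.

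Among the receptor chains, treatment groups overlapped for Il3ra and for both beta chains. Il3ra, the alpha chain of the IL-3 receptor (chr14:14346495-14355490, plus strand), had 27.4 and 51.0 CPM in BiTS libraries, 24.7 and 47.7 CPM in BiTS(mut) libraries and 29.7 and 40.3 CPM in isotype libraries. Each group held 1 low and 1 high library. Csf2ra, the alpha chain of the GM-CSF receptor (chr19:61224402-61228418, minus strand), had 42.4 and 39.7 CPM in BiTS libraries, 48.8 and 49.4 CPM in BiTS(mut) libraries and 49.6 and 42.2 CPM in isotype libraries. For Csf2ra the BiTS libraries lay below both BiTS(mut) libraries and overlapped the isotype range, by a margin of under 1 CPM. How many of all genes show this order was not counted, so nothing is read from it.

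The blocked log2 fold changes of the alpha chains were small. For BiTS against isotype they were 0.15 ± 0.12 for Il3ra and -0.13 ± 0.10 for Csf2ra, and for BiTS against BiTS(mut) 0.14 ± 0.11 for Il3ra and -0.24 ± 0.10 for Csf2ra. Il3ra shares 46 exon bases with the antisense gene Gm48860, which is not among the genes counted here.

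Csf2rb, the common beta chain (chr15:78325990-78351000, plus strand), and Csf2rb2, the beta chain for IL-3 alone (chr15:78282517-78305603, minus strand), are near copies with 20386 bases between them. Their coding sequences, of 2691 and 2637 bases in GENCODE M21, were identical at 95.2% of the aligned positions without a gap, and the longest identical run was 242 bases. Of all 100-base stretches of their transcripts, 4.63% of those in Csf2rb and 6.82% of those in Csf2rb2 occur in both genes, so part of their reads could be split between them and their separate counts are uncertain. The stretch of 90 coding bases with most differences, at positions 308 to 397 of Csf2rb and 311 to 400 of Csf2rb2, shows where reads can be told apart, with the 16 differing bases in capitals.
Csf2rb: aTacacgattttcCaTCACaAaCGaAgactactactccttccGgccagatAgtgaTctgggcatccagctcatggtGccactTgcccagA
Csf2rb2: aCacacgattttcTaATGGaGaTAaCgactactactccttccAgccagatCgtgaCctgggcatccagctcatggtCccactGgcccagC

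Csf2rb had 149.7 and 45.4 CPM in BiTS libraries, 178 and 53.3 CPM in BiTS(mut) libraries and 174 and 45.3 CPM in isotype libraries. Csf2rb2 had 17.5 and 6.66 CPM in BiTS libraries, 23.1 and 5.86 CPM in BiTS(mut) libraries and 25.4 and 7.47 CPM in isotype libraries. In every group 1 library stood several-fold above the other, and all 3 groups overlapped, with the higher library always from the first title set. Within both sets Csf2rb was lower in BiTS than in BiTS(mut), and Csf2rb2 was lower in BiTS than in isotype (log2 ratio -0.17 in the second set, counting interval -0.64 to 0.31). The remaining BiTS ratios of the beta chains changed sign between sets. Csf2rb in BiTS over isotype lay at 0.003 in the second set and -0.21 in the first. Csf2rb2 in BiTS over BiTS(mut) lay at 0.18 and -0.40. The BiTS(mut) over isotype ratios kept their sign, at 0.23 and 0.04 for Csf2rb and -0.35 and -0.13 for Csf2rb2. Csf2rb2 counts were 11.0% to 16.5% of Csf2rb counts in the 6 libraries. Blocked log2 fold changes for BiTS against isotype were -0.09 ± 0.09 for Csf2rb and -0.38 ± 0.16 for Csf2rb2, and for BiTS against BiTS(mut) -0.23 ± 0.09 for Csf2rb and -0.20 ± 0.16 for Csf2rb2, the last turning to 0.02 under spike-in scaling.

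**Figure D4:**
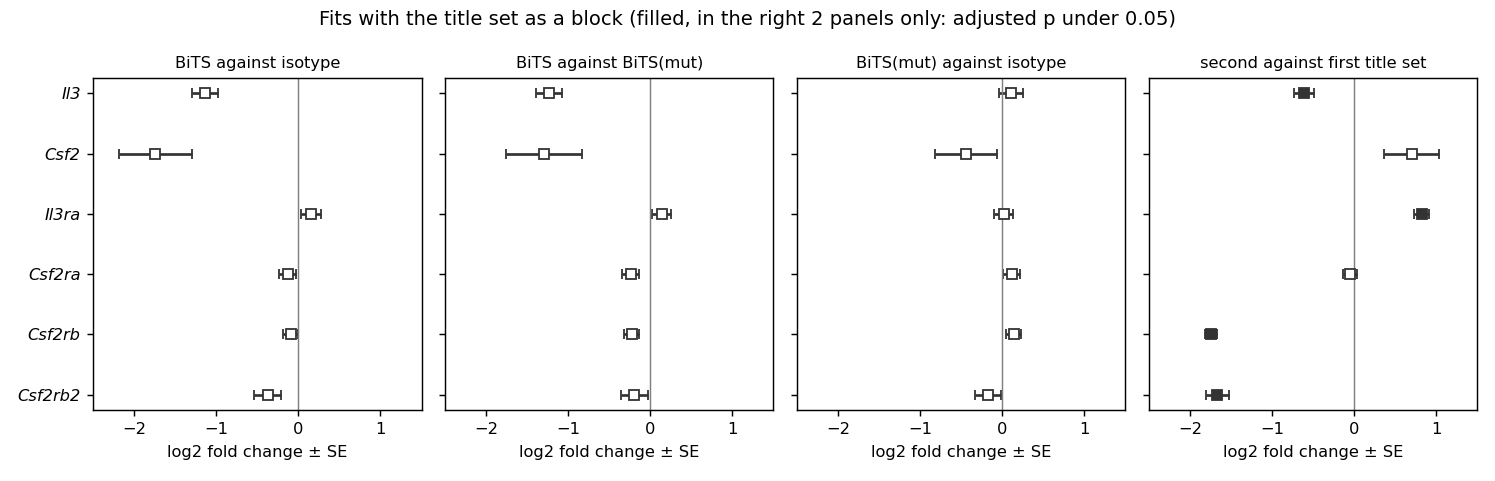
Log2 fold change ± SE of the 6 genes that passed the filter, from fits with the title set as a block, for 3 treatment comparisons and for the second against the first title set, with filled squares for calls in the right 2 panels alone. Il3 and Csf2 lie at -1.14 and -1.75 in BiTS against isotype, all 6 lie between -0.45 and 0.14 in BiTS(mut) against isotype, and Csf2rb and Csf2rb2 lie at -1.75 and -1.67 between the sets.

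BiTS(mut) against isotype was tested, since the genes were not selected on that comparison directly. Its libraries also entered the BiTS comparisons used for selection, so the test is not fully independent of it. No gene of the 6 was called by edgeR's quasi-likelihood test, with or without the block, and none by DESeq2. The number with an unadjusted p under 0.05 was 0 in each, and across all genes 0% were called without the block and 0.05% with it (0.00714% higher and 0.0429% lower). In the blocked fit the log2 fold change was 0.10 ± 0.14 for Il3 (-0.06 under spike-in scaling) and -0.45 ± 0.38 for Csf2, each with an adjusted p of 0.9997 in edgeR's quasi-likelihood test. The receptor chains ranged from -0.18 ± 0.16 for Csf2rb2 to 0.14 ± 0.09 for Csf2rb. With 2 libraries per group these errors leave room for changes of the size of 2 SEs, so the values do not show that the groups were alike.

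Between the second and first title sets, Il3ra, Csf2rb and Csf2rb2 differed by more on the log2 scale than in any treatment comparison of the blocked fits, while Csf2ra did not, and under spike-in scaling this did not hold for Il3ra (0.05). Csf2rb had 45.4, 53.3 and 45.3 CPM in the second set (BiTS, BiTS(mut) and isotype), against 149.7, 178 and 174 CPM in the first. Csf2rb2 averaged 6.66 ± 0.81 CPM in the second set and 22.0 ± 4.04 CPM in the first (SD, n = 3 each). Neither gene's sets overlapped, a pattern whose share over all genes was not counted. The log2 fold change was -1.75 ± 0.07 for Csf2rb (adjusted p = 3.65e-24) and -1.67 ± 0.14 for Csf2rb2 (adjusted p = 1.48e-14) in edgeR's quasi-likelihood test with treatment in the model. Over both genes summed, Csf2rb and its copy fell as much (-1.74). Whether reads shared by both genes were counted is not given, and their part in these values was not tested.

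Il3ra went the other way, with 46.3 ± 5.52 CPM in the second set and 27.2 ± 2.49 CPM in the first. Its sets did not overlap either, with the share over all genes again not counted. Its log2 fold change was 0.82 ± 0.09 (edgeR quasi-likelihood adjusted p = 4.55e-10), but 0.05 with no call under spike-in scaling. In TPM, Csf2rb stood at 0.260 to 0.329 times Il3ra in the second set and at 1.60 to 2.11 times Il3ra in the first, so the order of alpha and beta chain turned round between sets. Csf2ra, at 43.8 ± 5.03 CPM in the second set and 46.9 ± 3.92 CPM in the first, overlapped and was not called (-0.05 ± 0.08, edgeR quasi-likelihood adjusted p = 0.636).

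The cytokines also differed by set, in opposite directions. Il3 averaged 14.5 ± 7.17 CPM in the second set and 22.3 ± 8.24 CPM in the first. The Il3 libraries of the sets overlapped, but within each treatment the second set was lower, and its log2 fold change was -0.61 ± 0.13 (edgeR quasi-likelihood adjusted p = 5.44e-05). Csf2 averaged 2.18 ± 1.39 CPM in the second set and 1.34 ± 0.59 CPM in the first, was higher in the second set in all 3 treatments, and missed the threshold (0.70 ± 0.34, edgeR quasi-likelihood adjusted p = 0.0790). Il3 stood at 6.93 to 10.5 times Csf2 in TPM in the second set, against 17.7 to 25.6 times in the first.

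In all, 4 of the 6 genes were called between the sets, beside 52.7% of all genes tested (25.9% higher and 26.9% lower), so such calls were common among all genes. Scaling to the spike-in transcripts moved the median gene to -0.74 in this comparison, from 0.02. Relative to that shift the order of the genes held, but on that scale Il3ra was no longer called (0.05), Csf2ra was called lower (-0.82, edgeR quasi-likelihood adjusted p = 0.0435), Csf2 turned to -0.11, and Il3, Csf2rb and Csf2rb2 lay at -1.43, -2.51 and -2.42. Spike-in shares ranged from 3.36% to 7.54% of all counts.

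Dendritic cell markers moved with the beta chains. Their sum was 1884 to 2096 CPM in the second set and 3386 to 4268 CPM in the first, 13 of the 15 tested genes fell, and Batf3 rose (-0.40 under spike-in scaling). The macrophage and monocyte sum was 30.9 to 34.9 CPM in the second set and 43.9 to 54.1 CPM in the first, with 4 of 6 tested genes lower, Ly6c2 higher and Ccr2 at -0.75 ± 0.40 without a call. Of the 8 CD8 T cell markers 6 rose, of which 5 turned negative and none was called higher under spike-in scaling. Over all genes 26.9% fell and 25.9% rose between the sets. The part of these cell types in the receptor values was not tested.

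**Figure D5:**
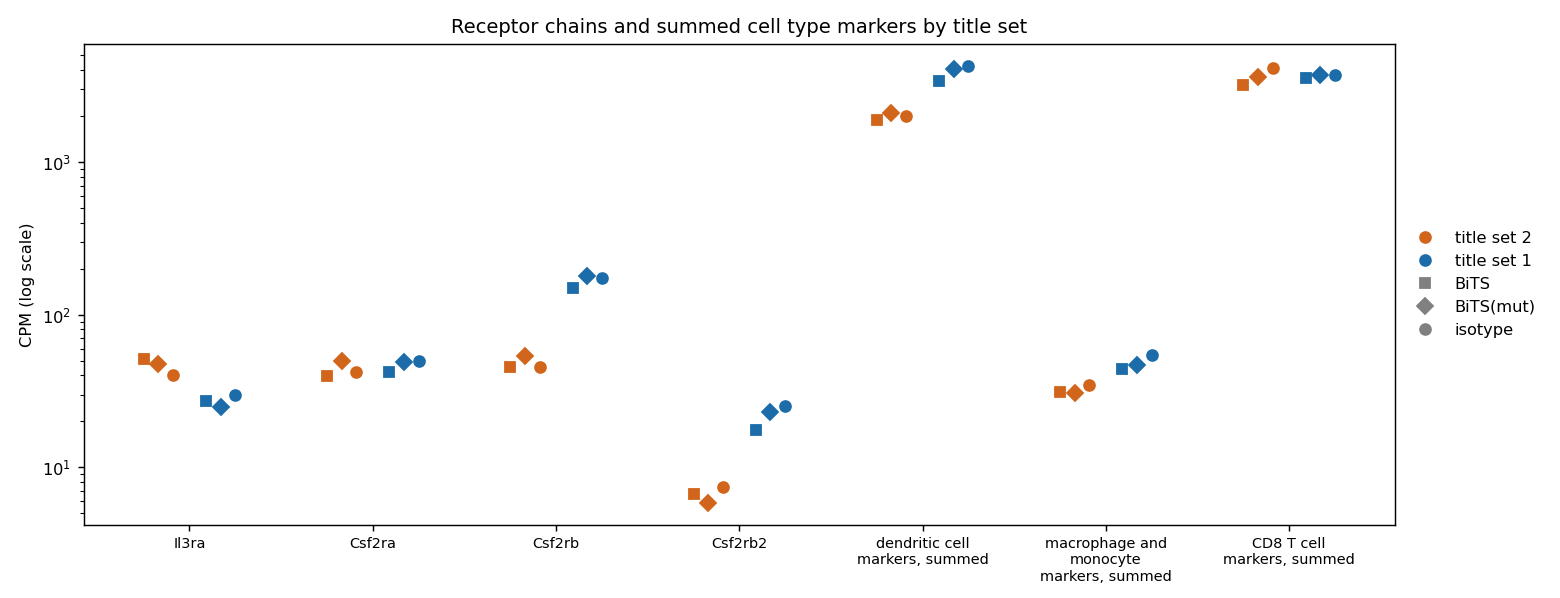
CPM on a log axis of the 4 receptor chains and of 3 summed marker lists, with the second title set (orange) left of the first (blue) and treatments as symbols. Csf2rb, Csf2rb2 and the dendritic cell and macrophage sums are lower in the second set in all 3 treatments, Il3ra is higher, and Csf2ra and the CD8 T cell sum, mostly Gzmb, overlap.

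The genes varied together in pairs over the 6 libraries, which share depth and set. Pearson's r of log2 CPM was 0.98 for Csf2rb with Csf2rb2, -0.94 for Il3ra with either beta chain, and 0.59 for Il3 with Csf2. Among 9786 genes with a mean of at least 5 CPM, those most like Il3 were Stap2, Nipsnap3b, Tnfsf11, Slc35b2 and Pgap2, with r of 0.981 to 0.994. Tnfsf11, which encodes the cytokine RANKL, had 15.1 and 9.90 CPM in BiTS libraries, 21.2 and 15.7 CPM in BiTS(mut) libraries and 21.2 and 17.1 CPM in isotype libraries. The genes most like Csf2 were Elp5, Caml, Tti1, Dclk1 and Mx1 (r of 0.983 to 0.999), and those most like Csf1 were Lrrc61, Dlat, Nup133, Dnajc9 and Ubfd1, though Csf1 rests on 41 counts in all. Those most like Csf2rb were Susd6, Ctsh, Lmtk2, Ncf1 and Sord, each at an r of 0.999 or more. Ncf1, a subunit of the phagocyte oxidase, had 211 to 225 CPM in the second set and 431 to 478 CPM in the first. With 6 libraries in 2 sets, such values describe likeness and nothing more.

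The neighbours of the cytokine cluster were mostly silent. Of the genes starting within 100 kb of Il3 or Csf2, the cytokines and Acsl6 alone passed the filter on low counts. Acsl6, an acyl-CoA synthetase gene, had 53.1 to 91.9 CPM and in the blocked fit fell in BiTS against isotype (-0.32 ± 0.09), beside -1.14 for Il3, and rose in the second set (0.51 ± 0.07). Around Csf2rb, Ncf4, another oxidase subunit gene, fell in the second set by 0.29 ± 0.08 on the log2 scale, Tst rose by 1.06 ± 0.30, and Mpst lay at 0.15 ± 0.10 with no call.

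Related cytokine and receptor genes were sparse: 6 of 14 passed the filter, with Il34 at 0. In the blocked fit Kit, the receptor of stem cell factor, rose in BiTS against isotype (0.69 ± 0.16), and 0 were called in BiTS against BiTS(mut). Over all genes 1.81% were called higher in the former comparison and 0.972% in either direction in the latter. Earlier results were known when this list was chosen, so its calls are a description. In the second set Flt3, Csf1r and Kit fell (-2.04 ± 0.16, -1.72 ± 0.30 and -0.81 ± 0.13), beside 26.9% of all genes lower. Csf1r encodes the M-CSF receptor and had 0.814 to 1.44 CPM in the second set, against 3.28 to 5.04 CPM in the first. The median of the 6 was 0.13 in BiTS against isotype and -0.45 between the sets, beside -0.00 and 0.02 over all genes.

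All 17 genes listed for signalling from the common beta chain were tested. In the blocked fit Pik3cd and Sos1, which act in the PI3K and RAS branches, rose in BiTS against isotype (0.49 ± 0.08 and 0.52 ± 0.10) and against BiTS(mut) (0.36 ± 0.08 and 0.41 ± 0.10), and none fell. Over all genes 1.81% and 0.272% were called higher in these comparisons, and 1.59% and 0.7% lower. As this list was also chosen with earlier results known, its calls are a description. Between the sets 15 of 17 fell and none rose, beside 26.9% of all genes lower. Jak2, the kinase bound to the beta chain, fell (-0.98 ± 0.07), as did the transcription factor Stat3 (-0.80 ± 0.07), the adaptor Gab2 (-1.23 ± 0.11) and the kinase Syk (-1.20 ± 0.11). The list median was -0.06 in BiTS against isotype and -0.55 between the sets.

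Of 14 genes listed as targets or feedback of STAT5 and GM-CSF, 12 were tested and Retnla was at 0. In BiTS against isotype, in the blocked fit, the chemokine genes Ccl17 and Ccl22 fell (-1.02 ± 0.14 and -0.73 ± 0.09), as did the feedback inhibitor Socs1 (-0.33 ± 0.09), while the kinase gene Pim2 rose (0.39 ± 0.08). Of all genes 1.59% were called lower and 1.81% higher in that comparison. In BiTS against BiTS(mut) Ccl17 and Ccl22 fell (-0.84 ± 0.14 and -0.68 ± 0.09), beside 0.7% of all genes lower. Both chemokine genes also stand in the dendritic cell list. Each of these lists was chosen with earlier results known, so the calls are a description and not a test. Between the sets 6 rose, among them Cish, Osm and Socs2 (0.60 ± 0.07, 0.82 ± 0.10 and 0.78 ± 0.10), and 4 fell, beside 25.9% of all genes higher and 26.9% lower, with the survival gene Mcl1 at -0.80 ± 0.07. Under spike-in scaling Cish and 3 others of those 6 turned negative and none was called higher. The list median was -0.18 in BiTS against isotype and 0.08 between the sets.

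All 24 listed transcription factors that act on Il3 and Csf2 in T cells were tested. In BiTS against isotype, in the blocked fit, Egr1, Egr2 and Irf4 fell (-0.61 ± 0.11, -0.88 ± 0.20 and -0.38 ± 0.08) and the AP-1 gene Fosl2 rose (0.33 ± 0.09). That is 3 of 24 lower and 1 higher, beside 1.59% and 1.81% of all genes. The list was chosen with earlier results known, so these calls are a description. Egr2 had 5.19 and 5.83 CPM in BiTS libraries, 7.55 and 11.6 CPM in BiTS(mut) libraries and 9.97 and 10.8 CPM in isotype libraries. In BiTS against BiTS(mut) Egr2 and Nfkb2 fell (-0.76 ± 0.20 and -0.32 ± 0.08), beside 0.7% of all genes lower. The NFAT genes Nfatc1, Nfatc2 and Nfatc3 lay between -0.14 and 0.16 with no call in either BiTS comparison. Between the sets 4 rose, all of them negative under spike-in scaling, and 14 fell, beside 25.9% of all genes higher and 26.9% lower. The smallest p-values among those that fell were those of Fosl2, Rel, Bhlhe40 and Jun, with log2 fold changes of -1.21 ± 0.07, -1.15 ± 0.08, -0.89 ± 0.07 and -0.83 ± 0.07, while Fosb and Fos had the lowest values (-2.01 ± 0.27 and -1.36 ± 0.15). The list median was -0.07 in BiTS against isotype and -0.26 between the sets.

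None of the 8 genes for proteins that bind AU-rich cytokine mRNA was called in a treatment comparison. Of all genes 3.4%, 0.972% and 0.05% were called in the blocked fits of BiTS against isotype, BiTS against BiTS(mut) and BiTS(mut) against isotype. Zfp36, whose product tristetraprolin binds the ATTTA repeats of the kind shown for Csf2, lay at -0.10 ± 0.10 in BiTS against isotype. Between the sets 5 fell, led by Zfp36 (-1.22 ± 0.09), Zfp36l1 (-1.10 ± 0.09) and Zfp36l2 (-0.53 ± 0.07), and Zc3h12a rose (0.41 ± 0.10, or -0.36 under spike-in scaling), beside 26.9% of all genes lower and 25.9% higher. The list median was -0.05 in BiTS against isotype and -0.28 between the sets. In BiTS(mut) against isotype 0 genes of the 5 lists were called, with or without the block, and without the block 0 were called in any treatment comparison.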

How the data were processed

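The authors deposited 1 table of raw counts per gene for each library. Their build was mm10 and DESeq2 was among the tools, per the submitters' processing notes. The aligner, the counting tool, the annotation release and the strandedness were not given in the sources used here, and without strand a gene and its antisense partner share reads. Exon intervals and lengths stand in the tables, per the file headers, and served to compute CPM and TPM here. Symbols came from GENCODE M21. The 7 genes, the 5 pathway lists and the 10 marker lists were chosen with earlier results of these data known.

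The test was edgeR's quasi-likelihood F test in edgeR 4.0.16 (with limma 3.58.1 under R 4.3.3), after TMM scaling and the filterByExpr filter, over 13996 genes. Calls are at a Benjamini-Hochberg adjusted p under 0.05. All 6 libraries entered 1 fit with treatment as the term, which had 3 residual degrees of freedom. A second fit added the title set as a block and had 2. The spread shared across genes added a median of 45.9 prior degrees of freedom with the block and 3.14 without it. The p-values and SEs of the blocked fit thus lean on the spread of other genes. The pairing comes from the title numbers: libraries of 1 set deviated together from their group means, with r of 0.66 (BiTS and isotype), 0.74 (BiTS and BiTS(mut)) and 0.73 (BiTS(mut) and isotype), while the labels do not tie a number to an animal or day. The difference between title sets is the block's coefficient. SEs are the fold change over the square root of F. The fits were tested on simulated counts. The alternatives were DESeq2 1.42.0, RLE size factors, spike-in scaling, no filter, Csf2rb and Csf2rb2 summed, and leaving out each library. A count of 0 allows 3 counts.

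Named genes were the 7 genes, up to 4 called genes per pathway list and comparison by smallest p in the blocked fit, the 3 most abundant markers of each list and those at 0 (not all printed), the 5 genes most like each of Il3, Csf2, Csf1 and Csf2rb by Pearson's r of log2 CPM (prior count 2), and tested neighbours within 100 kb. Mcpt8, Cpa3, Prss34, Cd200r3, Il2ra, Flt3l, the type 2 cytokine genes, Csf1r, Fos, Fosb, the NFAT genes and Zfp36 in treatment comparisons were named after their values were seen. Promoter windows came from RefSeq (GRCm38.p6), which held 6 of the 7 genes. The Csf2 window is not shown because the RefSeq start lies 232 bases from the deposited one.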

Additional observations from a re-analysis of the deposited data

How the results depend on the processing

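Without the block 0 genes were called by edgeR's quasi-likelihood test in each treatment comparison (176, 76 and 41 at an unadjusted p under 0.05 in BiTS against isotype, BiTS against BiTS(mut) and BiTS(mut) against isotype, the order kept here) and 0 by DESeq2. Without the filter it was 11, 3 and 5. With the replicate block 476, 136 and 7 genes and 2, 1 and 0 of the 7 were called. The block gave 155, 51 and 2 genes with DESeq2 (1, 1 and 0 of the 7, Csf2 having no adjusted p), 461, 148 and 7 with RLE (2, 1 and 0), 458, 155 and 14 with no filter (2, 1 and 0), 476, 136 and 7 with Csf2rb and Csf2rb2 summed (2, 1 and 0), and 0, 0 and 1 with spike-in scaling (0 of the 7). Spike-in scaling moved the median gene to 0.05, 0.18 and -0.12, and turned Csf2rb2 to 0.022 in BiTS against BiTS(mut) and Il3, Il3ra and Csf2ra to -0.056, -0.13 and -0.011 in BiTS(mut) against isotype. Csf2 between the sets turned to -0.11. Leaving out each library, with and without the block, gave 0 to 937, 0 to 435 and 0 to 132 genes, and 0 to 2, 0 to 1 and 0 of the 7. Over the same fits the log2 fold change for BiTS against isotype ran from -0.35 to 0.59 for Il3ra, from -1.20 to 1.09 for Csf2rb and from -1.24 to 0.68 for Csf2rb2. For BiTS against BiTS(mut) it ran from -0.41 to 0.70 for Il3ra, from -1.31 to 0.87 for Csf2rb and from -1.08 to 1.05 for Csf2rb2. For BiTS(mut) against isotype it ran from -0.29 to 0.45 for Il3, from -0.97 to 0.17 for Csf2, from -0.51 to 0.46 for Il3ra, from -1.0 to 1.32 for Csf2rb and from -1.45 to 0.92 for Csf2rb2. Leaving out 1 library without the block leaves the sets unbalanced. Il3 stayed negative in both BiTS comparisons in all these fits, and with the block, each library left out in turn, it lay at -1.50 to -0.86 against isotype and -1.60 to -1.03 against BiTS(mut), values that reuse the comparisons the genes were selected on. Between the sets 4957 to 7267 genes and 4 of the 7 were called with any library left out. Csf2 and Csf1 had 129 and 41 counts in all, which limits their precision.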

Other observations

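The type 2 cytokine genes, whose products also act on myeloid cells, were at the floor of these libraries. Il5, the ligand that shares the common beta chain with IL-3 and GM-CSF, had 5 counts over the 6 libraries. They gave 0.360 CPM in isotype replicate 4, 0.0859 CPM in isotype replicate 1 and 0 CPM in the others, too few to compare treatments. The Il5 receptor gene Il5ra had 3 counts in all. Il4 and Il13 had 13 and 11 counts in all. Il2 had 0.430 to 1.05 CPM, and Il2ra, its high-affinity receptor chain and a STAT5 target in activated T cells, had 497 to 580.3 CPM with no call in any comparison. Flt3l, the ligand of the dendritic cell growth factor receptor Flt3, had 27.8 to 35.4 CPM and was not called in any comparison.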
